A study of Mus musculus with 18 samples.

Results

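The genes described here are the cytochrome P450 enzymes of families 1 to 4 in mouse liver. They were taken as the protein-coding rows of the table whose GENCODE symbol is Cyp, a family digit from 1 to 4, a subfamily letter and a gene number, with nothing after it. Of 47729 rows, 75 met this rule. A row entered the tests when its value was at least 10 in at least 3 of 18 columns, which 54 of the 75 members did, among 13590 rows in all. The livers came from wt, Il22-/- and Il22bp-/- mice. The first mutant lacks IL-22, a cytokine that acts on hepatocytes, and the second lacks its soluble binding protein. Mice of each genotype had ischemia-reperfusion, in which the blood supply of the liver is interrupted and restored, or sham surgery, with 3 samples in each of the 6 combinations and therefore 9 samples of each surgery. The 18 columns of the table are headed IR1 to IR9 and W1 to W9. The W columns were read as sham by elimination, and no header gives a genotype, so that each group of 9 mixes the 3 genotypes. The sources used here name no strain, age, sex, length of ischemia or time of reperfusion. Nothing in the labels ties a column to an animal, and p-values measure the spread between these columns only.

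Cytochrome P450 enzymes are heme proteins of the endoplasmic reticulum that insert an oxygen atom into their substrate, with electrons passed on by P450 oxidoreductase and cytochrome b5. Families 1 to 3 are best known for oxidising drugs, toxicants and steroids, and family 4 for oxidising fatty acids and eicosanoids. In hepatocytes they are under the control of the aryl hydrocarbon receptor, of the nuclear receptors CAR, PXR and PPAR alpha and of the hepatocyte factor HNF4A. Many mouse Cyp2 and Cyp3a genes are also expressed unequally in females and males, through the sex-specific rhythm of growth hormone release.

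A feature of the columns bears on all results below. The summed counts of the Y-linked genes Ddx3y, Uty, Kdm5d and Eif2s3y lay between 0 and 2.07 in the 9 sham columns, which held 1751 to 5335 counts of the X-inactivation transcript Xist. The same 4 genes summed to 444 to 1034 in 6 of the 9 IR columns. Columns IR1, IR2, IR4 and IR7 held at most 11.5 counts of Xist, whereas IR5 and IR8 held Y-linked counts together with 542 and 964 counts of Xist. Columns IR3, IR6 and IR9 resembled the sham columns, with at most 1.84 Y-linked counts and 2312 to 4305 of Xist. Surgery and the presence of Y-linked reads therefore cannot be told apart in the comparison of 9 with 9 columns. Differences of the members are given for all 9 IR columns and again for the 3 IR columns without Y-linked reads against the 9 sham columns. The second comparison was chosen after this pattern had been seen, and genotype may differ between these columns in ways the headers do not show. The columns held 10176617 to 12763837 reads each. Hepatocyte RNA was abundant throughout, with Alb counts of at least 329683 in every column.

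Members of families 1 to 4 made up a smaller share of liver RNA in every IR column than in any sham column. They took 2.04% ± 0.202 (SD, n = 9) of all normalized counts in the sham columns and 0.856% ± 0.118 (SD, n = 9) in the IR columns. The share ran from 1.61% to 2.20% in sham and from 0.704% to 1.02% in IR, with no overlap. The 3 IR columns without Y-linked reads lay at 0.840%, 0.826% and 1.02%, also below every sham column. Without Cyp2e1, the most abundant member, the shares were 1.59% ± 0.140 and 0.648% ± 0.0740 (SD, n = 9 each), and 0.687% ± 0.0778 (SD, n = 3) in the 3 columns. In bulk liver, fewer hepatocytes and less RNA per hepatocyte cannot be told apart. The subfamilies differed in this, since Cyp2c genes went from 0.583% of counts to 0.157% in IR and 0.184% in the 3 columns, and Cyp3a genes from 0.270% to 0.0641% and 0.0853%. Cyp2d genes took 0.122% in sham, 0.175% in IR and 0.144% in the 3 columns.

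**Figure D1:**
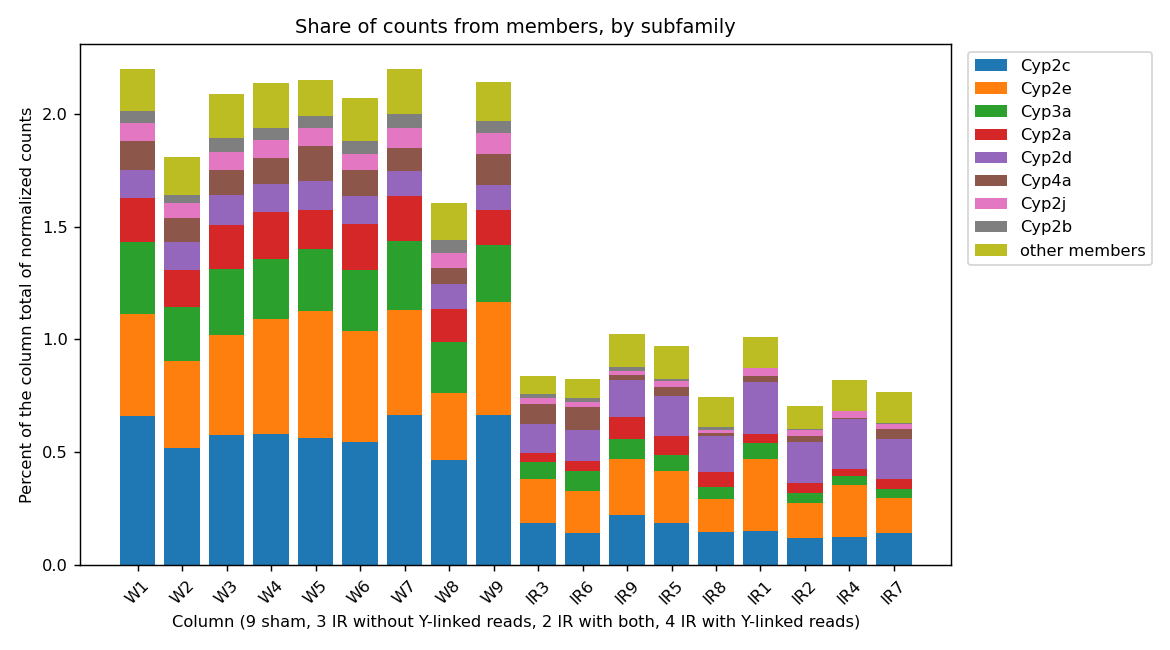
Percent of each column's normalized counts (vertical axis) that came from the members, stacked by subfamily, for the 9 sham and 9 IR columns (horizontal axis). Every IR column lies between 0.704% and 1.02%, below every sham column, and the Cyp2c, Cyp2e, Cyp3a, Cyp2a and Cyp4a segments are among those that are smaller in IR.

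Gene by gene, 38 members were lower in the IR columns and 6 were higher at an adjusted p under 0.05 (limma with a trend on log2(value + 1), Benjamini-Hochberg over 13590 rows), and 10 did not pass. Over all rows tested, 37.2% were called lower and 38.2% higher, so that the members' count of lower calls (70.4%) stands above the background and their count of higher calls (11.1%) below it. The median log2 difference, IR minus sham, was -1.48 over the 54 members and 0.023 over all rows. With the 3 IR columns without Y-linked reads, 39 members were lower and 3 higher, against 33.4% and 33.5% of all rows, and the medians were -1.28 and 0.015. All 38 members called lower with 9 IR columns were also called lower with these 3, and Cyp4a32 joined them. Leaving IR9 out of the 3 columns ended the lower calls of Cyp4a10, Cyp4a14 and Cyp4a32. Cyp4a32 held 21.5 counts in IR9, beside 50.9 and 83.6 in IR3 and IR6. Of the 6 higher members, Cyp4f16, Cyp4f17 and Cyp4f18 stayed higher, and Cyp1b1, Cyp2d9 and Cyp2u1 no longer passed. Without IR9, Cyp1b1 (1.02) and Cyp2u1 (0.78) were called higher in the other 2 of these columns. Cyp2c55 and Cyp2g1 reached the filter through sham columns only and Cyp1b1 through IR columns only, so that the filter itself bears on their calls. In 31 members all 9 IR values lay below all 9 sham values, and in 2 they lay above, where 19.5% and 19% of all rows did so. For the 3 columns 32 members lay below and 3 above, against 25.9% and 25.3% of all rows. Scaling every column to the same total moved the split of all rows from 5051 lower and 5198 higher to 3931 lower and 6325 higher and the median over all rows from 0.023 to 0.26, and gave 38 lower and 11 higher members.

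**Figure D2:**
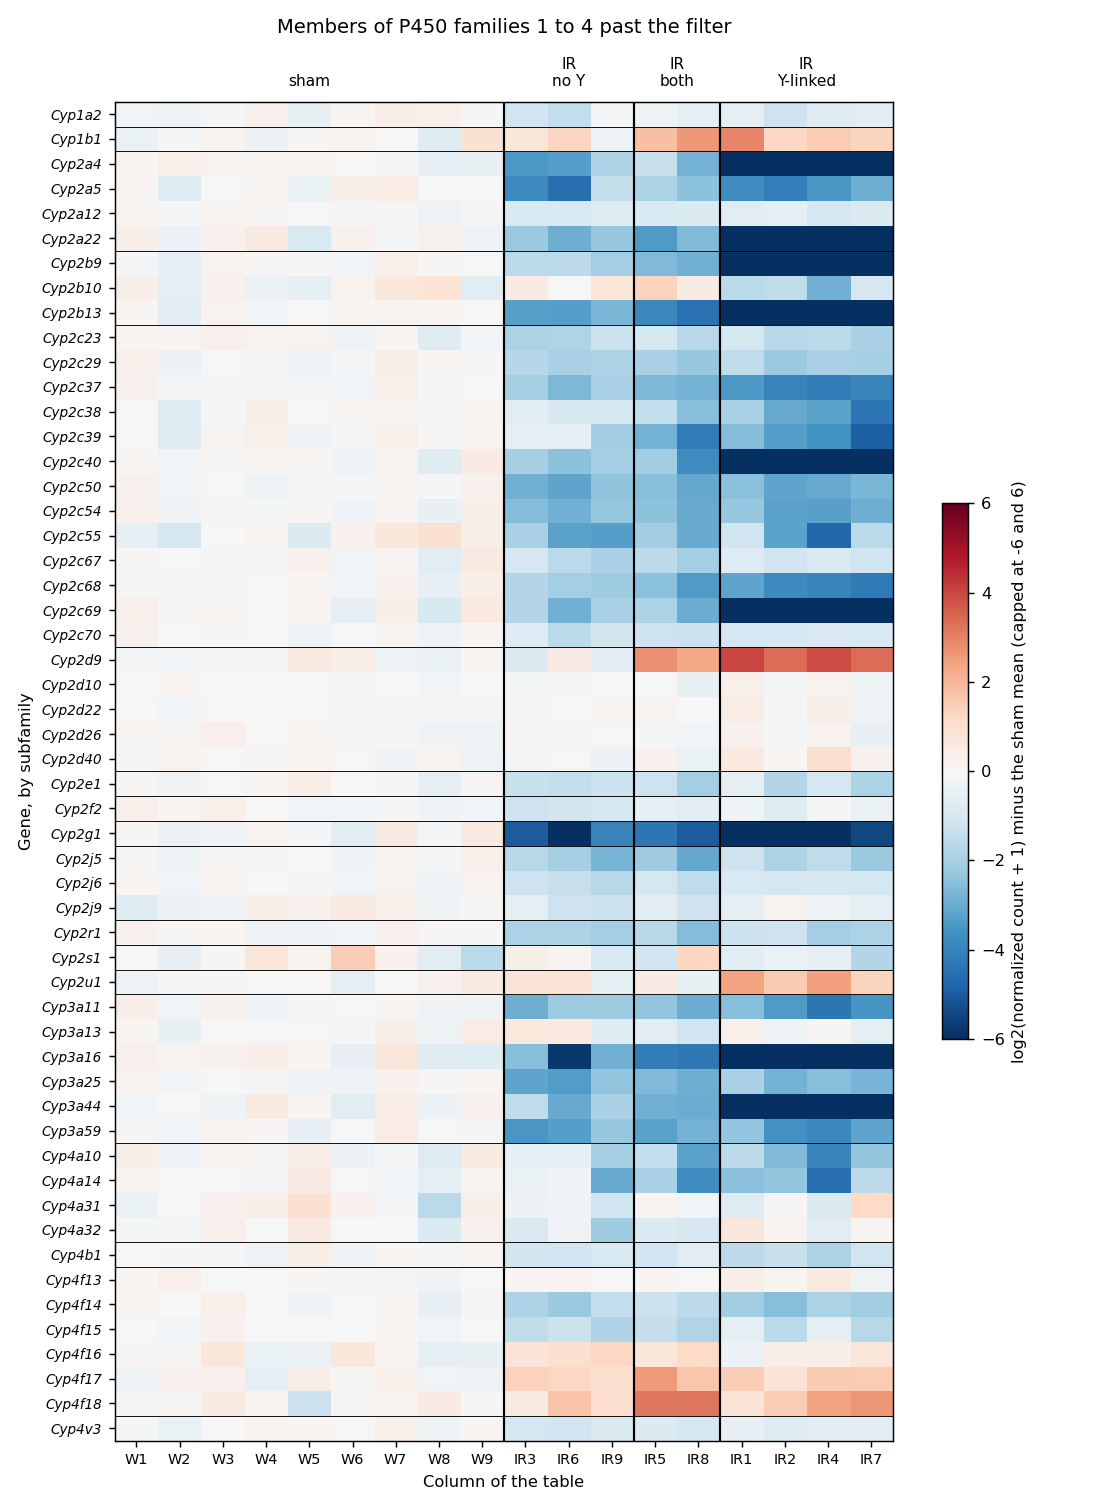
Each cell is log2(normalized count + 1) of one of the 54 members (rows, by subfamily) in one of 18 columns, minus the mean of the 9 sham columns, with blue below and red above that mean. Most rows are blue in all 9 IR columns, while rows such as Cyp2b9, Cyp2a4, Cyp3a16 and Cyp2d9 set columns IR1, IR2, IR4 and IR7 apart from IR3, IR6 and IR9.

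Cyp2e1, which oxidises ethanol, paracetamol and other small molecules in the cells around the central vein, had the highest level per kilobase of exon of any member in both groups. Its count ran from 37495 to 69959 in the sham columns, with a median of 57492, and from 13718 to 37386 in the IR columns, with a median of 22203. The highest IR value lay just under the lowest sham value. Cyp2e1 was 2.64-fold lower in IR (log2 difference -1.40, SE 0.17, limma adjusted p = 3.29e-07) and 2.55-fold lower in the 3 columns without Y-linked reads. Per kilobase, the order of the next members differed between groups. Cyp2c70, Cyp2a4, Cyp2c69, Cyp2d26 and Cyp2c29 followed in sham at 5181, 4939.6, 4934, 4736 and 4417 normalized counts per kilobase. In the mean of the 9 IR columns the followers were Cyp2d26, Cyp2c70, Cyp2f2, Cyp2d10 and Cyp1a2 at 4698, 2439, 2270.1, 2208 and 1708 per kilobase. That mean pools unlike columns. Cyp2d9 had a mean of 2642 per kilobase in IR1, IR2, IR4 and IR7, next to Cyp2f2 (2742) and Cyp2c70 (2629), and of 173 in IR3, IR6 and IR9. Levels between such neighbours were not tested against each other. Exon length here is the union of all exons of a gene, and the order depends on that choice. For Cyp3a11 it is 5093 bases, beside 2344 in its longest coding transcript, and for Cyp2c29 3061 beside 1783. For Cyp2d9 it is 2658 beside 1712.

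The Cyp2c subfamily, which oxidises drugs and turns arachidonic acid into epoxides, fell as a whole. All 13 of its members that passed the filter were lower in IR in both comparisons, with median log2 differences of -2.74 and -1.98, and in 11 of them the groups did not overlap. Over all rows, 37.2% were lower with 9 columns and 33.4% with 3, and 19.5% had all 9 IR values below all 9 sham values. Of the 13, Cyp2c55 reached the filter through sham columns only. Cyp2c29, inducible through CAR and PXR, had counts of 10341 to 17239.7 in sham (median 13499) and of 2796 to 4649 in IR (median 3461). That is a 3.84-fold drop in a gene whose 9 IR values spread little (limma adjusted p = 5.58e-12), and it was 3.62-fold without the columns that hold Y-linked reads. Cyp2c50 went from a sham median of 10529 to an IR median of 1496, and its log2 difference was -2.83 in one comparison and -2.81 in the other. Cyp2c54 (-2.76 and -2.57), Cyp2c23 (-1.56 and -1.67) and Cyp2c70 (-1.09 and -1.15) also hardly moved between the comparisons. Cyp2c70 makes muricholic acids, the bile acids particular to rodents.

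Other Cyp2c genes were far lower in some IR columns than in others. Cyp2c69 held 4102 to 11999 counts in sham, 2402, 1096 and 2078 in the IR columns without Y-linked reads, 2239 and 1012 in the 2 columns with Xist and Y-linked reads, and only 11.2 to 24.8 in the remaining 4. Its log2 difference was therefore -5.16 (95% interval -7.31 to -3.02) with all columns and -2.19 (-2.80 to -1.58) with the 3. Cyp2c40 behaved alike, at -4.71 and -2.17. These 2 genes, Cyp2c67 and Cyp2c68 share much sequence. Of the 50-base stretches in the Cyp2c40 transcript, 72.1% occur in another gene, most often Cyp2c69, so their counts depend on how the authors treated reads that fit several genes. Among expressed members, 22 share over 20% of such stretches, which include all of Cyp2a4, Cyp2a5, Cyp2a12 and Cyp2a22. Cyp2c55 held 12.3 to 49.4 counts in sham and 0 to 10.5 in IR.

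All 4 Cyp2a genes were lower in both comparisons. Cyp2a5, the coumarin and nicotine hydroxylase, had sham counts from 3756 to 8854 and IR counts from 276 to 2413, with medians of 6551 and 567. It was 8.90-fold lower in IR (limma adjusted p = 3.75e-08) and 9.52-fold lower in the 3 columns, where its log2 difference of -3.25 became -2.61 without IR6 and -4.17 without IR9. Cyp2a4, its close copy and a steroid 15-alpha-hydroxylase known for a higher level in females, held 5912 to 10522 counts in sham. In IR it held 762, 840.5 and 2317 in the columns without Y-linked reads, but 0 to 32.4 in columns IR1, IR2, IR4 and IR7. The 2 mixed columns did not lie between these levels, since IR5 and IR8 held 3256 and 1189.7. Cyp2a22 also differed between the comparisons, with log2 differences of -4.63 and -2.48. Cyp2a12 was 1.78-fold lower in the IR columns and 1.83-fold lower in the 3 columns.

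In the Cyp2b subfamily, the classic targets of phenobarbital and CAR, 2 of the 3 members that passed were lower and Cyp2b10 did not pass. Cyp2b9 counts lay between 3069.6 and 5283 in sham. The IR columns formed 3 levels that did not overlap, with 1071 to 1473 in the 3 columns without Y-linked reads, 679.7 and 589.7 in the 2 with both kinds of read, and 1.02 to 3.82 in the 4 others. Cyp2b9 is known for expression in female mouse liver. Its log2 difference was -5.72 (SE 1.26) with 9 IR columns and -1.73 (SE 0.15, limma adjusted p = 1.02e-07) with 3. Cyp2b13 also formed 3 levels in this order, with 1312 to 2459.6 counts in sham, 210.3 to 318, then 93.1 and 141, then 0 to 3.82, and log2 differences of -6.27 and -3.10. Column IR4 holds 0 to 1 counts of several of these genes, and without it the 9-column differences were -5.05 for Cyp2b9, -5.67 for Cyp2b13, -5.04 for Cyp2a4 and -4.93 for Cyp3a44. Cyp2b10, the member most used as a readout of CAR, ranged from 108 to 295 in sham and from 22.5 to 448 in IR. Its difference was -0.43 (limma adjusted p = 0.382) with 9 columns and 0.40 (limma adjusted p = 0.247) with 3, where the 95% interval of -0.24 to 1.04 leaves room for a change of either sign.

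The upstream windows of the Cyp2b genes show how near Cyp2b9 and Cyp2b13 are to each other and how far from Cyp2b10. They are the 250 bases before the start site on chromosome 7, plus strand, from RefSeq on GRCm38.p6. Cyp2b9 occupies chr7:26173159-26173408, Cyp2b13 chr7:26061245-26061494 and Cyp2b10 chr7:25897408-25897657. Capitals mark matches on either strand to 4 motifs. They are the TATA box TATAAA, the nuclear receptor core AGGTCA, the HNF4A-type sequence CAAAGTC and the STAT-type sequence TTCNNNGAA.
Cyp2b9: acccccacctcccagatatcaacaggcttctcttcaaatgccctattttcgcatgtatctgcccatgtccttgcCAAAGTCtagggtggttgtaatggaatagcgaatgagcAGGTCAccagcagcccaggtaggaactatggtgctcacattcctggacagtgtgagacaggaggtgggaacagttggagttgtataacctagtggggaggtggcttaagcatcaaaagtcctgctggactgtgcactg
Cyp2b13: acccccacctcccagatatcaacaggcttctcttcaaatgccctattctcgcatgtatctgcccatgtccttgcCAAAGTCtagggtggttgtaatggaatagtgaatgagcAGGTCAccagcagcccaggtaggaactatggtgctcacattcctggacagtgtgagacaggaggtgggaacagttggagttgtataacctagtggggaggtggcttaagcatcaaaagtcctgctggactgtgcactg
Cyp2b10: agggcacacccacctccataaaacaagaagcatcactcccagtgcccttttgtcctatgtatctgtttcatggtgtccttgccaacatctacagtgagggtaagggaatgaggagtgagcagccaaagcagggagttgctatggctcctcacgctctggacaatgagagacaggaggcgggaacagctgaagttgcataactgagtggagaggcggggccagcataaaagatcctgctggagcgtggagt
The Cyp2b9 and Cyp2b13 windows are identical at 248 of 250 bases (99.2%), and both hold CAAAGTC and AGGTCA at the same distances. The Cyp2b10 window matches that of Cyp2b9 at 182 of 260 aligned columns (70%) and holds none of the 4 motifs.

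**Figure D3:**
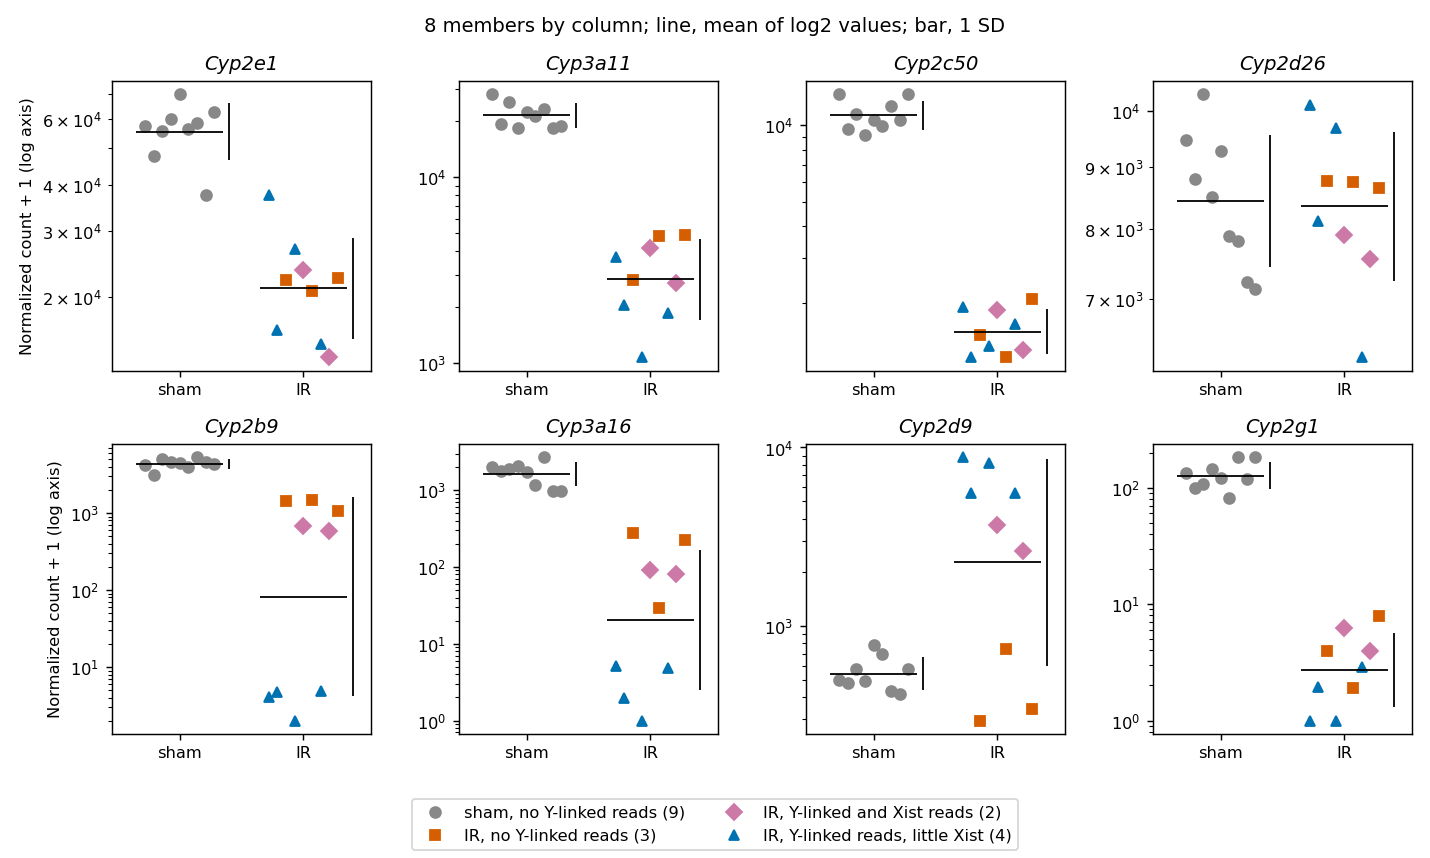
Normalized count + 1 on a logarithmic vertical axis for 8 members, with 1 point per column for 9 sham and 9 IR columns. Lines are means and bars 1 SD of the log2 values, and symbols separate columns with and without Y-linked reads. Cyp2e1, Cyp3a11, Cyp2c50 and Cyp2g1 are lower in every IR column, Cyp2d26 overlaps throughout, and Cyp2b9, Cyp3a16 and Cyp2d9 differ sharply among the IR columns.

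No Cyp2d gene was lower in IR in either comparison, and Cyp2d9 was the one called higher with 9 columns. Cyp2d26, second only to Cyp2e1 per kilobase in the IR columns, had counts of 7130.0 to 10327 in sham and 6262 to 10109 in IR. Its log2 difference was -0.014, with a 95% interval from -0.22 to 0.19. Cyp2d10 (-0.061), Cyp2d22 (0.10) and Cyp2d40 (0.15) did not pass either. This depends on the scaling, since Cyp2d10, Cyp2d22 and Cyp2d26 were called higher after quantile normalization, and these 3, Cyp2d40 and Cyp4f13 after scaling to the same total. Cyp2d9, a testosterone 16-alpha-hydroxylase known for a higher level in males, held 414 to 786 counts in sham and 295, 747 and 342 in the IR columns without Y-linked reads. In the 2 columns with both kinds of read it held 3666 and 2623, and in the other 4 between 5562 and 8813. The call of higher Cyp2d9 (log2 difference 2.08, limma adjusted p = 0.00297) ended with the 3 columns (-0.35, limma adjusted p = 0.208). Without IR6 the other 2 of those columns were called lower (-0.76).

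The windows of Cyp2d9 and of its neighbour Cyp2d10, which differ in this behaviour, are shown for comparison, with the same source and the same meaning of the capitals. Cyp2d9 lies at chr15:82452127-82452376 on the plus strand and Cyp2d10 at chr15:82407195-82407444 on the minus strand.
Cyp2d9: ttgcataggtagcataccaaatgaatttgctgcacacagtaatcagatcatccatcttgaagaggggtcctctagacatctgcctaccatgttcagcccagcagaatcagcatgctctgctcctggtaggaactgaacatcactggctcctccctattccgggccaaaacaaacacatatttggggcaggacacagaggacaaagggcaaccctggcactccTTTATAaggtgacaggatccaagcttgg
Cyp2d10: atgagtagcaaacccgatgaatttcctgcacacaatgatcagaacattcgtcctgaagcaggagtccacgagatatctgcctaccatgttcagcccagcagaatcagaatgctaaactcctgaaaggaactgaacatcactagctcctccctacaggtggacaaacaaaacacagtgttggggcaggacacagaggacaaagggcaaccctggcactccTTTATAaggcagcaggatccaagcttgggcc
Here 209 of 254 aligned columns (82.3%) are identical, and each window holds TATAAA on the opposite strand near the start site and no other of the 4 motifs.

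Among the other Cyp2 genes, Cyp2g1, an olfactory and steroid-oxidising P450, was close to absent in the IR columns. It held 80.8 to 181 counts in sham (median 120.1) and at most 6.87 in IR (median 1.91). On the log2(value + 1) scale its difference was -5.54 (SE 0.35, limma adjusted p = 2.02e-11) and -5.02 with the 3 columns, and the scale understates changes at such low counts. Cyp2g1 reached the filter through sham columns only and had to be low in IR, so this p-value is no independent support. The 3 expressed Cyp2j genes, epoxygenases of arachidonic acid, were all lower, and Cyp2j5 went from a median of 9019 to 2215 (4.16-fold, and 4.46-fold with the 3 columns). Cyp2r1, the vitamin D 25-hydroxylase, held 234 to 336 counts in sham and 46.2 to 119.9 in IR, and was 3.56-fold lower with 9 columns and 3.83-fold with 3. Cyp2f2, which bioactivates naphthalene and lies in periportal cells, had overlapping groups and a log2 difference of -0.67, against -1.13 with the 3 columns, and it did not pass after quantile normalization. Cyp2u1, a fatty acid hydroxylase, was called higher with 9 columns (0.98) and not with 3 (0.33). Cyp2s1 was too low to resolve, with a log2 difference of -0.41 and a 95% interval from -1.23 to 0.41.

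The Cyp3a genes, which oxidise a large share of drugs as well as bile acids and testosterone, were lower with 1 exception. Cyp3a11, the principal target of PXR in mouse liver, held 18506 to 28024 counts in sham (median 21458) and 1075 to 4883 in IR (median 2806). It was 7.61-fold lower in IR (log2 difference -2.93, SE 0.23, limma adjusted p = 5.53e-10) and 5.31-fold lower with the 3 columns. Cyp3a25 and Cyp3a59 fell by like amounts in both comparisons, with -2.73 and -2.96 for the first and -3.13 and -3.03 for the second. Cyp3a16 and Cyp3a44, known for expression in the female or fetal liver, reached -6.30 and -5.56 with 9 columns and -3.73 and -2.15 with 3. Cyp3a16 counts were 961 to 2682 in sham and 274, 28.5 and 221 in the 3 columns, 89.3 and 80.4 in IR5 and IR8 and at most 4.18 in the other 4, and its difference in the 3 columns became -2.71 without IR6 and -4.32 without IR3. Cyp3a44 counts were 1958 to 4408 in sham, 1080.1, 379 and 802 in the IR columns without Y-linked reads and 1.02 to 8.59 in columns IR1, IR2, IR4 and IR7. Columns IR5 and IR8, at 413 and 384, fell within the range of those without. Cyp3a13, which lies apart from the others on chromosome 5, overlapped fully at 1986 to 3646 in sham and 1182 to 4194 in IR and did not pass (-0.20 and 0.16). Without column IR9, the other 2 columns without Y-linked reads gave 0.60 for Cyp3a13 and a call of higher (limma adjusted p = 0.0088).

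Family 1, the targets of the aryl hydrocarbon receptor, held 1 lower and 1 higher member with 9 columns. Cyp1a2, which metabolises caffeine, had overlapping counts of 4075 to 7364 in sham and 1986 to 5212 in IR, with medians of 5266 and 3605. It was 1.69-fold lower (limma adjusted p = 0.000408) and 1.88-fold lower with the 3 columns (limma adjusted p = 0.00325), and it no longer passed after quantile normalization. Cyp1a1, the gene that rises most when the receptor is activated, stayed below the filter, with means of 6.41 counts ± 4.42 in sham and 4.58 ± 1.92 in IR (SD, n = 9 each). Cyp1b1, expressed mainly outside hepatocytes, was higher with 9 columns (1.47, limma adjusted p = 0.000576), at 2.19 to 9.01 counts in sham and 3.44 to 38.7 in IR, and did not pass with 3 (0.60, limma adjusted p = 0.180). Cyp1b1 reached the filter through IR columns only and had to be high there, so its call with 9 columns is no independent support. A stricter filter removed it.

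Family 4 held both directions. Cyp4a10 and Cyp4a14, fatty acid omega-hydroxylases under PPAR alpha, had medians of 4723 and 9130.0 counts in sham and of 1108 and 1771 in IR. Both were called lower, with log2 differences of -2.03 and -2.26 with 9 columns and -1.04 and -1.20 with 3. The second comparison rests on column IR9, in which Cyp4a14 held 1134 counts beside 7011 and 7919 in IR3 and IR6, and without IR9 neither gene passed. Cyp4a14 also missed the threshold in this comparison by edgeR (-0.78, adjusted p = 0.0759). Cyp4a31 did not pass in either comparison (-0.23 and -0.59). Cyp4b1, Cyp4v3, Cyp4f14 and Cyp4f15 were lower in every IR column than in any sham column, by 2.31-fold, 1.76-fold, 3.73-fold and 2.56-fold, and with the 3 columns by 2.07-fold, 2.03-fold, 3.63-fold and 2.91-fold. Cyp4b1 oxidises aromatic amines and short fatty acids, and Cyp4f14 hydroxylates leukotriene B4.

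The 3 members that were higher in both comparisons all belong to Cyp4f, a subfamily that oxidises leukotrienes and other lipid mediators. Cyp4f18, best known from neutrophils, held 3.46 to 14.5 counts in sham and 14.7 to 99.8 in IR, and was 3.72-fold higher (limma adjusted p = 6.21e-05). With the 3 columns it was 2.13-fold higher (limma adjusted p = 0.0117), a call that ended without column IR6. The summed counts of 12 neutrophil markers ran from 62.1 to 137 in sham and from 365 to 4724 in IR, with S100a8 at 3.94 (and 3.27 with 3 columns). Of these markers 9 passed the filter and were called higher in both comparisons, but 6 of the 9 reached it through IR columns only and had to be high there. Ly6g, a defining marker, had a mean of 0.238 counts in sham and 5.03 in IR, under the filter. The part of these cells in Cyp4f18 was not tested. Cyp4f17 held 28.3 to 55.4 counts in sham and 78.3 to 264 in IR, without overlap (2.76-fold, and 2.28-fold with the 3 columns). Cyp4f16 was 1.59-fold higher with overlapping groups, and 1.98-fold with the 3 columns, and shares 26.5% of its 50-base stretches with other genes, mainly Cyp4f37. Cyp4f13 did not pass (0.16).

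**Figure D4:**
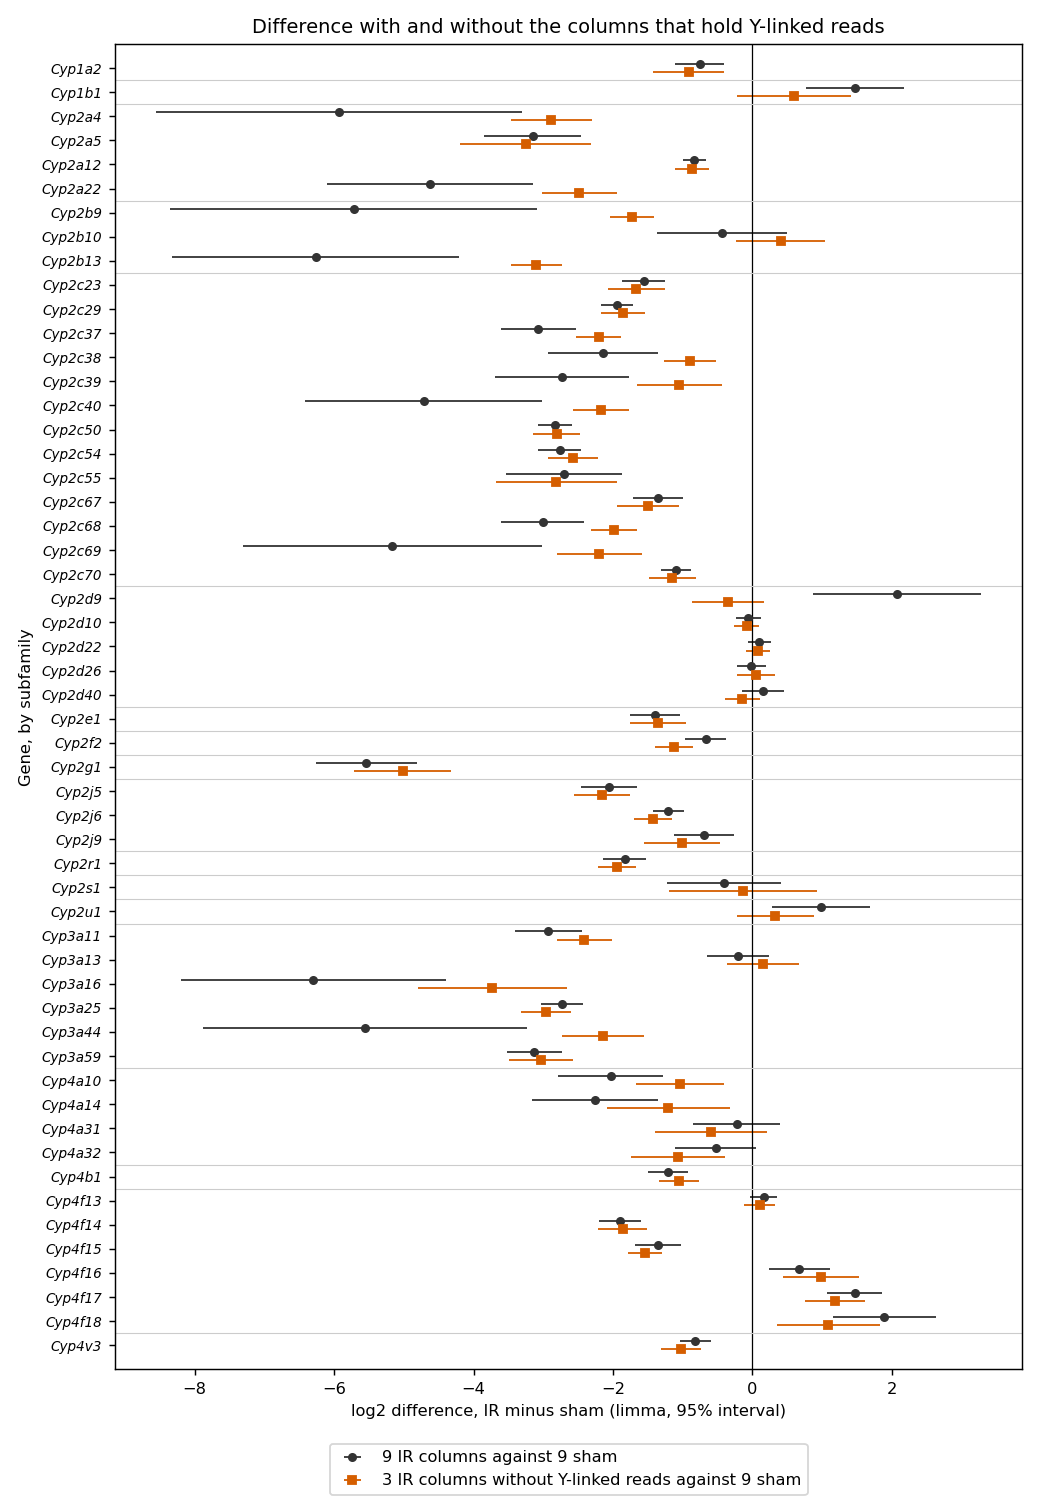
Log2 difference, IR minus sham, with its 95% interval for the 54 members, by subfamily. Circles use 9 IR columns and squares the 3 without Y-linked reads, each against 9 sham columns. Both symbols lie left of 0 for most members, and 13 members have symbols at least 1 apart, among them Cyp2b9 (-5.72 and -1.73) and Cyp2d9 (2.08 and -0.35).

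The members also differed more among IR columns than among sham columns. The SD of log2(value + 1) was larger in IR for 50 of the 54, with a median of 0.617 in IR and 0.283 in sham, where the medians over all rows were 0.345 and 0.231. In 8 members the SD in IR was above 2. A fit with a term for Y-linked reads, without the 2 columns that hold both kinds of read, compared columns IR1, IR2, IR4 and IR7 with IR3, IR6 and IR9. It was added after the pattern had been seen. Genotype may differ between these columns as well and cannot be told apart from the Y-linked reads here. In this fit 13 members were lower with Y-linked reads and 3 were higher, where 0.64% of all rows were called lower and 0.927% higher. The 13 were Cyp2a4, Cyp2a22, Cyp2b9, Cyp2b10, Cyp2b13, Cyp2c37, Cyp2c38, Cyp2c39, Cyp2c40, Cyp2c68, Cyp2c69, Cyp3a16 and Cyp3a44. The 3 were Cyp2d9, Cyp2f2 and Cyp2u1, at 4.02, 0.76 and 1.62. The count rests on leaving out IR5 and IR8. With them, 7 members were lower and 2 higher, against 0.309% and 0.625% of all rows, and Cyp2a4, Cyp2a22, Cyp2b10, Cyp2c69, Cyp3a16, Cyp3a44 and Cyp2u1 did not pass (limma adjusted p from 0.0565 for Cyp3a44 to 0.588 for Cyp2b10).

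The largest differences between these IR columns were in Cyp2b9 (-8.46, SE 0.24), Cyp3a44 (-7.29, SE 0.41) and Cyp2a4 (-7.25, SE 0.72). A list of 9 members that textbooks describe as unequal between female and male mouse liver was called in full, with Cyp2d9 higher and the other 8 lower in the columns with Y-linked reads. The list was chosen with earlier results of these data known, so its full count is a description and not a test. With IR5 and IR8 in the fit, Cyp2a4, Cyp2c69, Cyp3a16 and Cyp3a44 of this list were not called. The same 8 were lower than sham in the 3 columns without Y-linked reads. Cyp2b10 differed too (-2.15), at 168 to 280.1 counts without and 22.5 to 85.0 with Y-linked reads. Cyp2e1 (0.032, 95% interval -0.54 to 0.61), Cyp2c29 (-0.071, -0.45 to 0.31) and Cyp2c50 (-0.045, -0.44 to 0.35) did not pass in this fit. P450 genes whose symbols end in a letter fell outside the rule but showed the same contrast. Cyp4a12a, known for expression in males, had a mean of 3.01 counts in sham and a log2 difference from it of 5.40 with 9 IR columns and 0.13 with 3, and Cyp3a41a, known from females, of -4.91 and -2.85. Cyp4a12a reached at most 12.4 counts in sham and met the filter only through IR columns, so the filter bears on its difference.

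**Figure D5:**
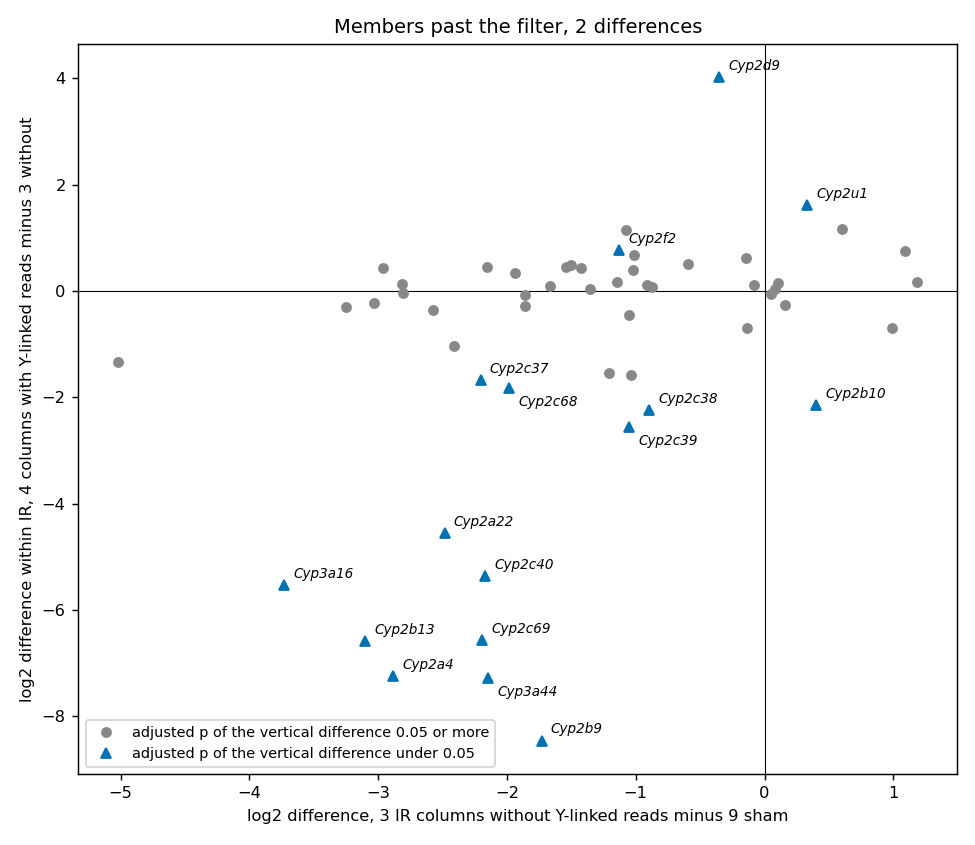
Each point is one of the 54 members. The horizontal axis is the log2 difference between the 3 IR columns without Y-linked reads and the 9 sham columns, and the vertical axis the log2 difference between the 4 IR columns with Y-linked reads and those 3. The 2 differences share the 3 columns IR3, IR6 and IR9. Named triangles passed the test of the vertical difference, with Cyp2d9 at the top and Cyp2b9 at the bottom, and most other members lie near 0 on the vertical axis and left of 0 on the horizontal one.

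Neighbouring members often had the same call, and some clusters held exceptions. With 9 columns, 70.4% of the 54 members were lower and 11.1% higher, against 37.2% and 38.2% of all rows. Agreement between neighbours beyond these shares was not tested. Several neighbours share sequence, and Cyp2c55 and Cyp2g1 reached the filter through sham columns only. The Cyp2c cluster on chromosome 19, from 39007019 to 40187333 (GRCm38), holds 14 members, and all 12 that passed were lower in both comparisons. On chromosome 7, from 25802475 to 27158668, 13 members of the Cyp2a, Cyp2b, Cyp2f, Cyp2g, Cyp2s and Cyp2t subfamilies lie together, of which 8 of the 10 that passed were lower and Cyp2b10 and Cyp2s1 did not pass. The Cyp2d cluster on chromosome 15, from 82370527 to 82794294, had no lower member among 5. The Cyp3a cluster on chromosome 5, from 145345279 to 146113287, had 5 lower of 5, and the Cyp4f cluster on chromosome 17, from 32452723 to 32947402, had 2 lower and 2 higher of 5.

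Of 62 members with a RefSeq window, 45 had passed the filter, and their 250 upstream bases were searched for short motifs on both strands as a description. Each member gave 1 window, the one nearest its annotated start, whereas the 32851 windows were not reduced to 1 per gene. The shares are therefore not strictly alike. TATAAA, the letters of the TATA box, occurred at any position in 44.4% of the 45 and in 12.4% of all 32851 windows. It began at -31 from the start site in Cyp2e1 but at -234 in Cyp3a11. CAAAGTC, a sequence of the kind that HNF4A binds, occurred in 33.3% and 3.84%, and most of the members that hold it are Cyp2c, Cyp2a or Cyp3a genes. The nuclear receptor core AGGTCA occurred in 22.2% and 14.0%, and GTTAAT, an HNF1-type sequence, in 15.6% and 6.43%. The core of the AHR site, GCGTG, occurred in 13.3% and 28.2%, and TTCNNNGAA, the STAT-type site, in 4.44% and 7.02%. Copies of one ancestral gene share such letters, so these members are not independent.

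Genes that serve the P450 enzymes moved in both directions. Of 8 redox partners, 5 were lower and 1 higher in both comparisons, where 37.2% of all rows were lower and 38.2% higher with 9 columns. Cyb5a, cytochrome b5, was the most changed (26979 counts ± 3471 in sham and 4892 ± 794 in IR, SD, n = 9 each), with a log2 difference of -2.47. Por, the oxidoreductase that all members need, did not pass (-0.28, SE 0.23), and its IR counts ran from 2264 to 8749.7 around a sham range of 4181 to 5988. Of 10 genes of heme supply and removal, 5 were lower and 3 higher in both comparisons, near those shares of all rows. Alas1, the first enzyme of heme synthesis, was lower (-0.56 and -0.55) except after quantile normalization (-0.053), and Hmox1, which breaks heme down, was higher (1.97 and 1.27). Among 14 P450 genes of other families, 6 were lower and 2 higher with 9 columns and 8 and 1 with 3. At least 1 of these 14 reached the filter through IR columns only. Cyp7a1, the first enzyme of bile acid synthesis, was lower in both (-5.14 and -5.43).

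Receptors that control the members moved in both directions. Of 15 xenobiotic and metabolic receptors and partners that passed the filter, 10 were lower and 3 higher with 9 columns and 8 and 3 with 3, and 6 and 4 with 9 columns scaled to the same total, against 37.2% and 38.2% of all rows with 9 columns. At least 1 of these 15 reached the filter through IR columns only. Ppara (-1.68 and -1.73), the glucocorticoid receptor Nr3c1 (-1.39 and -1.43) and the PXR gene Nr1i2 (-0.94 and -1.19) were lower in both comparisons. The CAR gene Nr1i3 was lower with 9 columns (-1.02, limma adjusted p = 0.00588) and did not pass with 3 (-0.65, limma adjusted p = 0.0798), and Ahr likewise (-0.31 and -0.30), which also did not pass after scaling to the same total (-0.069). Of 13 hepatocyte transcription factors, 4 were lower and 8 higher with 9 columns and 3 and 7 with 3, and Hnf4a was among the higher (0.72 and 0.80). In the growth hormone pathway, the receptor Ghr was lower (-1.93 and -2.06), as was Cux2, a factor that represses male genes in the female liver (-4.22 and -3.19). Grouped by the receptor they are known for, 8 of 10 members linked to CAR and PXR were lower in both comparisons. Cyp2b10 and Cyp3a13 were the exceptions, and Cyp2c55 reached the filter through sham columns only. Of 4 members linked to PPAR alpha, 2 were lower with 9 columns and 3 with 3, and the latter 3 calls ended without column IR9. Over all 54 members, 70.4% were lower with 9 columns and 72.2% with 3. Over the 6 lists of redox, heme, receptor, transcription factor, growth hormone and other P450 genes together, 33 were lower and 19 higher of 67 with 9 columns and 32 and 16 with 3.

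The markers of liver cell types and zones differed in direction, and their counts stand against 37.2% of all rows lower and 38.2% higher. Of 13 hepatocyte markers other than P450 genes, 11 were lower and 1 higher with 9 columns and 8 and 1 with 3, and their summed counts ran from 2253570.0 to 2714550.0 in sham and from 760230.0 to 1128890.0 in IR. Alb was lower (-1.80 and -1.43) except after quantile normalization, which fixes the most abundant gene at 1 value. Of 14 pericentral genes 9 were lower and 2 higher (7 and 2 with 3 columns), and of 12 periportal genes 8 were lower and 1 higher (9 and 1), with medians of -0.99 and -0.77. Glul, the enzyme of the cells next to the central vein, was lower with 9 columns (-0.62, limma adjusted p = 0.0264) and did not pass with 3 (-0.33) or under the quantile (-0.20) and same-total (-0.38) scalings. Kupffer cell markers were lower in 8 of 10 and higher in 1 in both comparisons, with Clec4f at -1.32 and -1.02. Their summed counts were 8147 to 11924 in sham and 3473 to 5667 in IR. Sinusoidal endothelial markers were lower in 6 of 9 and higher in 2 (5 and 2 with 3 columns), with Stab2 at -0.34 and not called with 3 columns (-0.13) or after scaling to the same total. Lymphocyte markers were lower in 7 of 8 (6 with 3 columns), though 5 of the 8 reached the filter through sham columns only, and stellate cell markers lower in 5 of 10 and higher in 5 (5 and 4). Monocyte markers were higher in 4 of 6 and lower in 1 (3 and 2). At least 1 of these 6 reached the filter through IR columns only. Cholangiocyte markers were higher in 4 of 6 and lower in 1 in both comparisons, with Krt19 at 1.44 and 1.42. Erythroid markers were lower in 1 of 5 (3 with 3 columns). Of 8 acinar and gut genes, Cpa1 and Alpi were at 0 in all columns, and only Cela1 and Fabp2 passed, both lower. Of 18 acute phase and cytokine genes, 17 were higher with 9 columns and 16 with 3, with Saa1 at 6.69 and 6.68, and 3 of the 18 reached the filter through IR columns only. Within the 9 IR columns the summed members had Pearson r of 0.50, 0.45 and -0.42 against the summed hepatocyte, acute phase and neutrophil lists (Spearman rho 0.47, 0.48 and -0.28), and none of 6 relations in the 2 groups had an adjusted exact permutation p under 0.297. The largest, r = 0.69 with the acute phase list in the sham columns (rho 0.25, exact permutation p = 0.0495 and 0.521), was -0.048 without the 2 columns farthest from the median. The neutrophil r of -0.42 in IR was -0.041 when 2 columns were left out likewise. With mean z-scores in place of summed counts, the 3 values of r within IR were 0.41, 0.0055 and -0.036 (rho 0.35, 0.10 and 0.20). The IR columns with or without Y-linked reads are too few to give a relation within each. The part of these cells and programmes in the members' levels was not tested.

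Of the 21 members that did not reach the filter, Cyp2j7, Cyp2j11, Cyp2j12, Cyp2j13, Cyp2w1 and Cyp4a29 were listed at 0 in all 18 columns. Just inside the filter lay Cyp2s1, with means of 10.7 counts in sham and 7.98 in IR. Just outside it lay Cyp1a1 and Cyp2d11, the latter with a highest value of 39.0 in 1 IR column and means of 3.96 and 9.36.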

How the data were processed

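Liver RNA of 18 samples was sequenced. Per the submitters' processing notes, DESeq2 1.14, Trimmomatic 0.33 and STAR 2.5.0a were used with GRCm38, and no source used here states the read counter, the annotation or any filter. The deposited values are counts per gene after the authors' scaling by DESeq2 size factors, by the name of the table, and were treated as a signal on the count scale. Dividing each column by its smallest step gave whole reads back for 100% of values within 0.01 read. In column W1 the step is close to 1 read. Symbols, gene types and exon lengths came from GENCODE vM21, which gave a symbol for 47310 of 47729 identifiers. No column of per-sample values was left out.

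Differences were fitted on log2(value + 1) with limma 3.58.1 (R 4.3.3, trend on the mean) over all rows with a value of at least 10 in at least 3 of 18 columns, with Benjamini-Hochberg adjustment and a threshold of 0.05. Relations across columns were tested by two-sided exact permutation, and no p is reported for the summed share of the members, which were chosen with results known. The members, gene lists and named genes were chosen with earlier results of these data known. All members could be named, with full values for the most abundant of each subfamily, the 10 largest called differences and a set chosen for textbook roles. From other lists, at most the 4 genes with the smallest adjusted p, fixed defining markers and regulators were named. Ly6g, Cpa1, Alpi, Cela1 and Fabp2 were added after their values were seen. On simulated counts of 13590 genes, 9 against 9 columns recovered 45 of 50 genes raised and 42 of 50 lowered 2-fold, and 3 against 9 recovered 22 and 18. These designs also called 11 and 8 unchanged genes. The counts were drawn from sham means with 1 dispersion for all genes. The members spread more in IR (median log2 SD 0.617, beside 0.283 in sham), so these rates need not hold for them. Alternatives included edgeR 4.0.16 and DESeq2 1.42.0 on the whole reads, other scalings, filters and pseudocounts, and each column left out. Upstream windows came from the RefSeq annotation of GRCm38.p6, and protein sequences were not used here.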

Additional observations from a re-analysis of the deposited data

Results flagged for a closer look

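In 6 of the 9 IR columns the Y-linked genes Ddx3y, Uty, Kdm5d and Eif2s3y gave summed counts of 444 to 1034, whereas the other 3 IR columns and all 9 sham columns held at most 2.07. These genes lie outside the comparison of the members. Cyp2b13 in sham column W2 held 1312 counts, and on the log2(value + 1) scale its gap to the next sham value took up more of the range of the 9 sham columns than Dixon's 95% limit allows. Of 66 groups examined in this way, chance alone would place about 1 in 20 past the limit.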

How the results depend on the processing

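Members with few counts, such as Cyp2s1, were resolved poorly. The count of 38 lower members was 34 to 40 under the alternatives run, the lowest with a term for Y-linked reads in all 18 columns, and 6 higher members became 11 after scaling to the same total, where Cyp2d10, Cyp2d22, Cyp2d26, Cyp2d40 and Cyp4f13 were gained, and 3 with the 3 IR columns without Y-linked reads, by limma or edgeR, and with a term for Y-linked reads, with or without the 2 mixed columns. Quantile normalization gave 36 lower and 9 higher, without Cyp1a2 (-0.23) and Cyp2f2 (-0.21). Leaving out each column gave 38 to 39 lower and 6 to 7 higher, and among the columns without Y-linked reads 36 to 40 and 2 to 6. The lowest of the latter was without IR6, where Cyp4f18 lost its call, and the highest without IR9.

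Among the members given with full values, 5 changed sign in some settings. Cyp2b10 was 0.40 in the 3 columns and with either Y-linked term, 0.36 by edgeR, -0.66 to -0.13 with 1 of 18 columns left out and 0.24 to 0.61 with 1 of 12 left out. For Cyp2d26 the values were 0.38 after quantile normalization, 0.23 after scaling to the same total, 0.048 in the 3 columns and with either term, 0.056 by edgeR, 0.018 without the mixed columns, and -0.049 to 0.038 and 0.018 to 0.085 with columns left out. Cyp2d9 was -0.35 in the 3 columns and with either term and -0.24 by edgeR, with ranges of 1.83 to 2.44 and -0.76 to -0.091. Cyp3a13 was 0.20 after quantile normalization, 0.035 after scaling to the same total, 0.16 in the 3 columns and with either term, 0.27 by edgeR and 0.0046 without the mixed columns, with ranges of -0.31 to -0.081 and -0.082 to 0.60. Cyp2s1 ranged from -0.61 to -0.22 and from -0.38 to 0.25. The cause was not tested. No paired analysis was possible because the column headers carry no replicate number that links a column to a labelled sample.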
